A study of Mus musculus with 7 samples.

Results

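*Pax3*, *Pax7*, *Six4*, *Eya1*, *Eya2*, *Eya4*, *Pitx3* and *Lbx1* encode transcriptional regulators that act upstream of the myogenic basic helix-loop-helix (bHLH) genes in muscle progenitors. They were chosen by name, and all 8 were found among the 56748 genes counted in 7 libraries of mouse muscle stem cells (MuSCs). The study compared MuSCs of WT mice (3 libraries, replicates 1 to 3) with MuSCs of mice homozygous for *Jag2sm* (4 libraries, replicates 1 to 4), to ask how gene expression differs when the NOTCH ligand JAG2 is deficient. The labels give the genotype of the second group as *Jag2*-/-, whereas the study describes *Jag2sm* as a naturally occurring hypomorphic allele with an amino acid change in the first EGF repeat of JAG2. The cells came from hind limb muscles of adult mice, and were depleted of CD31+, CD45+ and Sca1+ cells and enriched for Integrin α7 on magnetic columns. The study's general methods keep MuSCs in growth medium with serum and bFGF. Its sequencing methods do not state whether or how the cells of these libraries were cultured. Exact ages are not given, and neither is whether each library came from a separate mouse, so the p-values measure the spread between these samples, which may be partly technical.

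PAX3 and PAX7 are paired-box factors of muscle progenitors. *Pax7* marks satellite cells, the adult stem cells under the basal lamina of the muscle fiber, and *Pax3* acts mainly in embryonic limb muscle precursors and in the satellite cells of some muscles. SIX-family proteins are homeodomain factors that bind the MEF3 motif in promoters of muscle genes, and EYA proteins are coactivators with phosphatase activity that have no DNA-binding domain and reach those promoters through SIX-family proteins. LBX1 is a homeobox factor of precursors that migrate into the limb, and PITX3 is a bicoid-type homeobox factor that comes on as myoblasts differentiate. The bHLH factors below them are MYF5 and MYOD1, which commit cells to the muscle lineage, and MYOG and MYF6, which act in differentiation.

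The RefSeq promoter table (build GRCm38.p6) holds 250 bases before and 50 after the transcription start for 4 of the 8 members, *Pax7*, *Six4*, *Eya4* and *Pitx3*, in 6 entries. Each was searched on both strands for the MEF3 motif TCAGGTT, the RBPJ motif GTGGGAA bound by the nuclear effector of NOTCH, the E-box CAGCTG bound by bHLH factors, and the paired domain motif GTCACGC. MEF3 was found in 1 of the 6 entries, a *Six4* start, and in 4.07% of all 32851 entries of the same length. The E-box was found in 1, *Pitx3*, against 16.3% of all entries. RBPJ and paired domain motifs were in none of the 6, against 6.38% and 2.09%. Among the bHLH genes, *Myog* and *Myf5* had entries, and the *Myog* promoter, a textbook target of SIX-family and EYA proteins, held MEF3. A match is a stretch of letters and not a measured site, and the absence of a match says only that these letters are not in the window. The *Six4* and *Myog* promoters are shown because the SIX-family motif occurs in both, and the first *Eya4* entry because *Eya4* had the largest fold change of the members. MEF3 is in capitals, and sequences run 5′ to 3′ on the gene's strand, which is minus at chr12:73113196-73113495 (*Six4*), plus at chr1:134289754-134290053 (*Myog*) and minus at chr10:23349894-23350193 (*Eya4*).
Six4: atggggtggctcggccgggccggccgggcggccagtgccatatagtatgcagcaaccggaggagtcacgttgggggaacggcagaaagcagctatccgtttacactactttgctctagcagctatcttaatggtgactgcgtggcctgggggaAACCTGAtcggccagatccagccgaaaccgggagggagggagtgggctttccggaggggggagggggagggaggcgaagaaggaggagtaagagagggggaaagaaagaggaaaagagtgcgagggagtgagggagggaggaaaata
Myog: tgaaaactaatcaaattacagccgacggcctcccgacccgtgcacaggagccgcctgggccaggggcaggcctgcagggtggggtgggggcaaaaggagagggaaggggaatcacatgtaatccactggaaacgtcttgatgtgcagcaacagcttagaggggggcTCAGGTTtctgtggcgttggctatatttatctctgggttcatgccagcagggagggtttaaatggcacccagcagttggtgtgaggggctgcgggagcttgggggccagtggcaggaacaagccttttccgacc
Eya4: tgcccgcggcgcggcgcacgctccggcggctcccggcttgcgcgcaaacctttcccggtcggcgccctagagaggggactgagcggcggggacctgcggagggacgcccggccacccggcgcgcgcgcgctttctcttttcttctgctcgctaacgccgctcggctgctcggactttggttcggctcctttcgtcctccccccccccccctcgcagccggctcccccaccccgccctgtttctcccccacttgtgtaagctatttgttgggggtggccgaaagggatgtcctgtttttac

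Between 187834 and 1937581 reads per library fell on genes, the fewest in WT replicate 1, where 1 read equals 5.76 CPM (the reads on a gene relative to the TMM-scaled library total), against 0.493 to 1.41 CPM in the other libraries. WT replicate 1 thus differed in depth, and also in that 45.1% of its aligned reads fell on no gene, against 20.8% to 25.7% elsewhere. The part of the latter in the results was not tested. *Jag2* was lower in every *Jag2sm* library (42.4 to 78.8 CPM) than in every WT library (80.7 to 115.7 CPM), with a log2 fold change of -0.64 (standard error, SE, 0.243, adjusted p = 0.166 from edgeR). The satellite cell markers *Pax7*, *Myf5*, *Myod1*, *Itga7*, *Cdh15*, *Des*, *Vcam1* and *Sdc4* were all detected and tested, 4 with a positive and 4 (*Myod1*, *Itga7*, *Cdh15* and *Des*) with a negative log2 fold change. They summed to 3346 to 5839 CPM in WT and 2165 to 2633 CPM in *Jag2sm* libraries. Of them 1 was called, *Des*, the muscle intermediate filament, which was lower (log2 fold change -1.63, adjusted p = 0.0244 from edgeR). *Des* had 1807 to 4600 CPM in WT and 706 to 1103 CPM in *Jag2sm* libraries. Without *Des*, the sums of the other markers overlapped between the genotypes. *Ptprc*, *Cd3e* and *Kdr* had no counts, and summed endothelial, immune and glial markers stayed between 0 and 14.1 CPM in all libraries. Summed mural markers reached 646 CPM in *Jag2sm* replicate 1, of which *Rgs5* gave 645, against 19.0 to 47.3 CPM in the other 6 libraries. The other mural markers were not raised in *Jag2sm* replicate 1, where *Cspg4* had its lowest value (1.41 CPM) and *Kcnj8* and *Myh11* had no counts. Fibro-adipogenic markers summed to 0 to 16.1 CPM in WT and 6.41 to 44.9 CPM in *Jag2sm* libraries. Of these, *Cd34* had 0 to 13.3 and 2.96 to 28.5 CPM, and *Ly6a* had 0 to 2.59 and 2.45 to 19.3 CPM. *Pdgfra* had at most 2.83 CPM, *Dcn* had counts in WT alone and *Dpt* had none. Tenocyte markers summed to 115 to 123 CPM in WT and 29.6 to 75.8 CPM in *Jag2sm* libraries. Nearly all of this was *Scx*, which was called lower. *Mkx* went the other way, with no counts in WT and 0.493 to 4.24 CPM in *Jag2sm* libraries. *Tnmd* and *Fmod* had at most 1.94 CPM. Between 2.44% and 3.24% of reads were not aligned in the WT libraries and *Jag2sm* replicate 3, against 46.0% to 50.8% in the other *Jag2sm* libraries. Differentiated muscle markers (*Acta1*, *Myh3*, *Myh8*, *Tnnt3*, *Ckm* and *Mymk*) summed to 11054 to 21023 CPM in WT and to 360 to 2511 CPM in *Jag2sm* libraries. The part of these cell types in the results was not tested, and in bulk RNA fewer cells of a type and less RNA per cell cannot be told apart.

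All 8 members passed the filter on low counts and were tested with 9489 genes. None was called at an adjusted p under 0.05 by edgeR's quasi-likelihood test, which called 6.26% of all genes tested, 1.42% higher and 4.84% lower in *Jag2sm* MuSCs. Without adjustment 2 members, *Pax7* and *Eya4*, had a p under 0.05, against 19.7% of all genes, and DESeq2 and limma-voom likewise called none and gave 2 members an unadjusted p under 0.05. DESeq2 called 6.35% of the 12409 genes to which it gave an adjusted p. Of the 25181 genes to which it gave a p, 7.59% had an unadjusted p under 0.05. That larger set includes genes of low count, so 7.59% is not on the same base as the shares of edgeR and limma-voom. Limma-voom called 6.45% of the 9489 genes and had 19.8% at an unadjusted p under 0.05. Of the log2 fold changes, 5 were positive (*Pax3*, *Pax7*, *Six4*, *Eya1* and *Lbx1*) and 3 were negative (*Eya2*, *Eya4* and *Pitx3*). For *Lbx1* and *Pitx3* the unweighted mean CPM had the opposite sign to the fitted fold change (23.4 against 18.7 CPM and 7.37 against 8.13 CPM in WT and *Jag2sm* libraries). The median log2 fold change of the 8 members was 0.28, against 0.05 over all genes tested. In 3 members (*Pax7*, *Six4* and *Eya4*) the genotypes did not overlap, against 22.5% of all genes tested. *Pax7* and *Six4* were higher without overlap, against 10.3% of all genes, and *Eya4* was lower, against 12.2%.

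**Figure D1:**
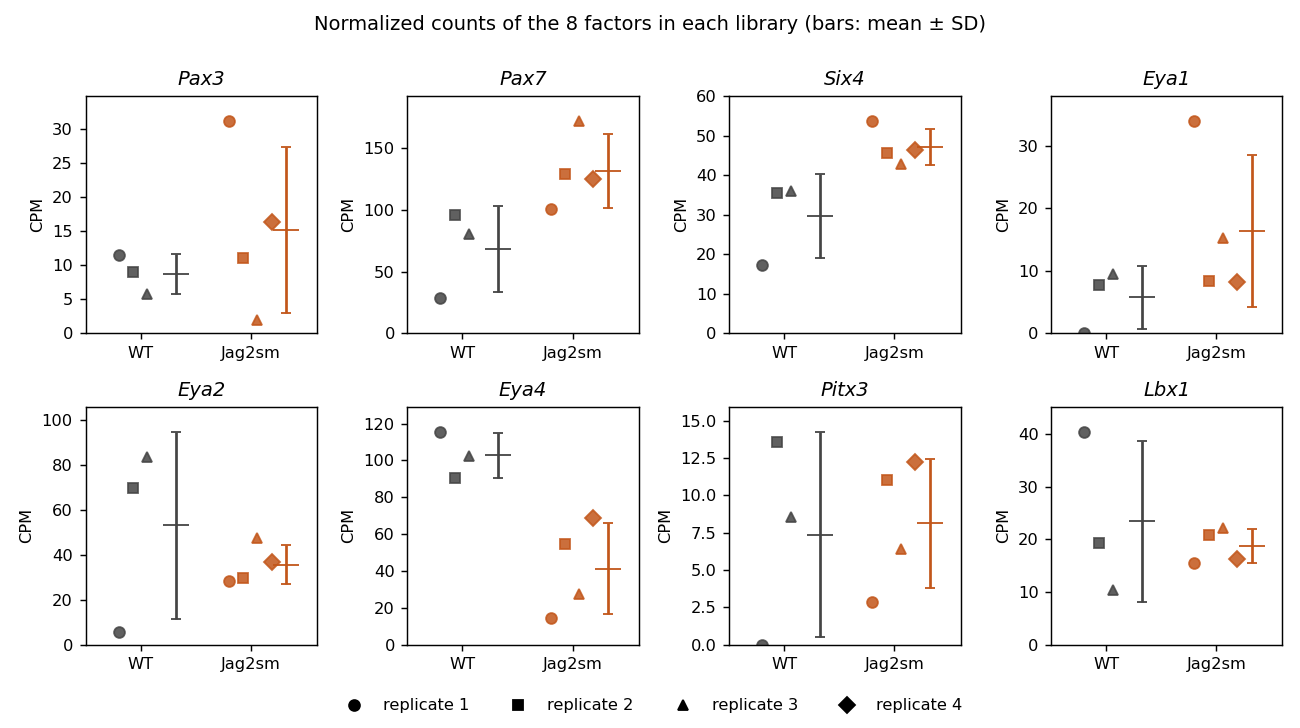
Normalized counts (CPM, vertical axes from 0) of the 8 factors in 3 WT and 4 Jag2sm libraries, with marker shapes for the replicate number and bars for the mean ± SD of each genotype. Pax7 and Six4 were higher, and Eya4 lower, in every Jag2sm library than in every WT library, and WT replicate 1 often lies apart from the other WT libraries.

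*Pax7* (ENSMUSG00000028736.14, chromosome 4 of GRCm39, 139464373 to 139560839) had 28.8, 95.7 and 80.6 CPM in WT replicates 1, 2 and 3. In *Jag2sm* replicates 1 to 4 it had 100.4, 129, 172 and 125 CPM. Every *Jag2sm* library was above every WT library, narrowly so for *Jag2sm* replicate 1 over WT replicate 2, and WT replicate 1 was far below the rest with 5 counts. The means were 68.4 ± 35.1 CPM (SD, n = 3) and 132 ± 29.8 CPM (SD, n = 4), and the log2 fold change was 0.80 (SE 0.308, 95% interval 0.12 to 1.48, adjusted p = 0.174 from edgeR). A two-sided exact permutation test gave p = 0.0286, the smallest that 3 libraries against 4 allow. Within the batches of the labels, which equal the replicate numbers, the *Jag2sm* library exceeded the WT library by 1.74, 0.43 and 1.08 in log2 CPM, and with the batch as a block the log2 fold change was 0.95 (adjusted p = 0.141 from edgeR). In fits without the block, the log2 fold change was 0.57 without WT replicate 1 (adjusted p = 0.203 from edgeR). It was 0.63 without *Jag2sm* replicate 3 (adjusted p = 0.291 from edgeR). The sign of the *Pax7* difference thus did not rest on the shallow library, and its size was smaller without either of these libraries.

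*Pax3* (ENSMUSG00000004872.16, chromosome 1, 78077904 to 78173771) was sparse, with 22 counts in WT and 62 in *Jag2sm* libraries together. It had 11.5, 9.05 and 5.69 CPM in WT replicates 1 to 3 and 31.1, 11.1, 1.97 and 16.3 CPM in *Jag2sm* replicates 1 to 4. *Jag2sm* replicates 1 and 3 held the highest and the lowest value of all libraries, so the WT range lay inside the *Jag2sm* range. The log2 fold change was 0.75 with a 95% interval of -0.92 to 2.43 (adjusted p = 0.644 from edgeR), and it was -0.04 with limma-voom and 0.12 with the batch as a block. Of the reads on the pair, *Pax3* took 28.6% (2 of 7 reads, 95% exact interval 3.67 to 71.0), 8.64% and 6.59% in the WT libraries and 23.7%, 7.88%, 1.13% and 11.6% in the *Jag2sm* libraries. *Pax7* had more reads than *Pax3* in every library, although the 7 reads of WT replicate 1 are too few to tell which gene was the major one there. The shares overlapped between the genotypes. Such intervals cover counting error only.

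*Six4* (ENSMUSG00000034460.10, chromosome 12, 73146383 to 73160230) had 17.3, 35.6 and 36.0 CPM in WT replicates 1 to 3 and 53.7, 45.6, 42.9 and 46.5 CPM in *Jag2sm* replicates 1 to 4. The 4 *Jag2sm* values lay close together and all above WT. The means were 29.6 ± 10.7 CPM (SD, n = 3) and 47.2 ± 4.64 CPM (SD, n = 4), a log2 fold change of 0.51 (SE 0.244, 95% interval -0.03 to 1.04, adjusted p = 0.287 from edgeR; two-sided exact permutation p = 0.0286). WT replicate 1 had 3 reads, and without it the log2 fold change was 0.37 (adjusted p = 0.331). Within batches the difference in log2 CPM was 1.54, 0.34 and 0.24.

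*Eya4* (ENSMUSG00000010461.17, chromosome 10, 22978861 to 23226817) stood lowest among the members in fold change. It had 115, 90.5 and 102 CPM in WT replicates 1 to 3 and 14.1, 54.6, 27.6 and 68.5 CPM in *Jag2sm* replicates 1 to 4. The WT libraries were close to each other, and the *Jag2sm* libraries were all below them but spread widely among themselves. The means were 103 ± 12.4 CPM (SD, n = 3) and 41.2 ± 24.8 CPM (SD, n = 4), from 268 and 229 counts, with a log2 fold change of -1.25 (SE 0.400, 95% interval -2.14 to -0.37, adjusted p = 0.0979 from edgeR; two-sided exact permutation p = 0.0571).
Within batches *Eya4* was lower by -2.88, -0.71 and -1.83 in log2 CPM, the same sign in each. With the batch as a block *Eya4* was called, at a log2 fold change of -1.66 (SE 0.391, adjusted p = 0.0401 from edgeR), in a fit that called 5.95% of all genes tested. With the block, leaving out either library of a batch removes the same pair. Without batch 1 the *Eya4* value was -1.28 with *Jag2sm* replicate 1 left out (adjusted p = 0.0649 from edgeR, not called) and -1.29 with WT replicate 1 left out (adjusted p = 0.0431, called), so the call lay at the threshold there. *Jag2sm* replicate 1 had the lowest *Eya4* and the highest *Rgs5*, without a rise of the other mural markers, and the part of *Rgs5* was not tested. Without the pair of batch 2 the value was -2.31 or -2.30 and without that of batch 3 it was -1.59 or -1.60, all called. Without the block, *Eya4* was called without *Jag2sm* replicate 4 (-1.58, adjusted p = 0.0423 from edgeR), in a fit that called 550 of 9322 genes tested. It was called in none of the other 6 fits that left out a library, where the adjusted p ran from 0.125 to 0.253.

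*Eya2* (ENSMUSG00000017897.19, chromosome 2, 165436895 to 165613647) had 5.76, 69.8 and 83.5 CPM in WT replicates 1 to 3 and 28.3, 29.7, 47.3 and 36.7 CPM in *Jag2sm* replicates 1 to 4. WT replicate 1, with 1 read, was below all *Jag2sm* libraries, whereas WT replicates 2 and 3 were above all of them. The log2 fold change was -0.80 (SE 0.407, 95% interval -1.70 to 0.10, adjusted p = 0.314 from edgeR). Without WT replicate 1 it was -1.09 (SE 0.233, adjusted p = 0.0317 from edgeR). *Eya2* was thus called once the shallowest library was left out, in a fit that called 576 of 9938 genes tested. The other fits without a block that left out 1 library did not call it, with adjusted p from 0.227 to 0.689. With the block, *Eya2* was called without WT replicate 1 (-1.02, adjusted p = 0.0473 from edgeR), in a fit that called 666 of 9938 genes tested. It was not called without *Jag2sm* replicate 1 (-1.01, adjusted p = 0.0586 from edgeR), which removes the same pair, so the call lay at the threshold. Within batches the difference in log2 CPM was 2.00, -1.19 and -0.80, and batch 1 rests on that single WT read. The exons of *Eya2* overlap those of *Gm29993* on the opposite strand, and the strand setting of the counting is not given.

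*Eya1* (ENSMUSG00000025932.15, chromosome 1, 14239167 to 14380543) had 0, 7.76 and 9.48 CPM in WT replicates 1 to 3 and 33.9, 8.29, 15.3 and 8.15 CPM in *Jag2sm* replicates 1 to 4. *Jag2sm* replicates 2 and 4 lay within the range of WT replicates 2 and 3, and *Jag2sm* replicates 1 and 3 were above it. In WT replicate 1 the count of 0 allows up to 17.3 CPM, taken as 3 counts. The log2 fold change was 0.98 (95% interval -0.37 to 2.33, adjusted p = 0.415 from edgeR), from 22 and 77 counts. Without *Jag2sm* replicate 1 it was 0.50 (adjusted p = 0.647), the lowest of the 7 fits that left out a library, which ran up to 1.23. *Eya3*, the broadly expressed paralog, averaged 39.5 ± 5.77 CPM (SD, n = 3) in the WT group against 40.2 ± 3.14 CPM (SD, n = 4) for *Jag2sm*, with a log2 fold change of 0.08 and a 95% interval of -0.40 to 0.56. Its exons overlap those of *Xkr8* on the opposite strand.

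The make-up of the *Eya* reads, which does not depend on the scaling between libraries, is given as a description. *Eya4* took 69.0% of 29 reads in WT replicate 1 and 44.3% in each of WT replicates 2 and 3. In *Jag2sm* replicates 1 to 4 it took 11.8%, 42.2%, 21.4% and 44.2%, so *Jag2sm* replicates 2 and 4 were close to the deeper WT libraries and replicates 1 and 3 far below. *Eya1* took 0%, 3.80% and 4.10% of the *Eya* reads in WT libraries and 28.2%, 6.42%, 11.8% and 5.26% in *Jag2sm* libraries. Over pooled reads, the share of *Eya4* was 45.5% in WT (95% exact interval 41.4 to 49.6) and 31.6% in *Jag2sm* (28.3 to 35.2), that of *Eya1* was 3.74% (2.36 to 5.6) and 10.6% (8.48 to 13.1), and that of *Eya3* was 17.3% (14.3 to 20.6) and 29.6% (26.3 to 33.0). Pooled intervals leave out the spread between libraries, which for *Eya4* was 14.3 (SD, n = 3) and 15.9 (SD, n = 4) percentage points.

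**Figure D2:**
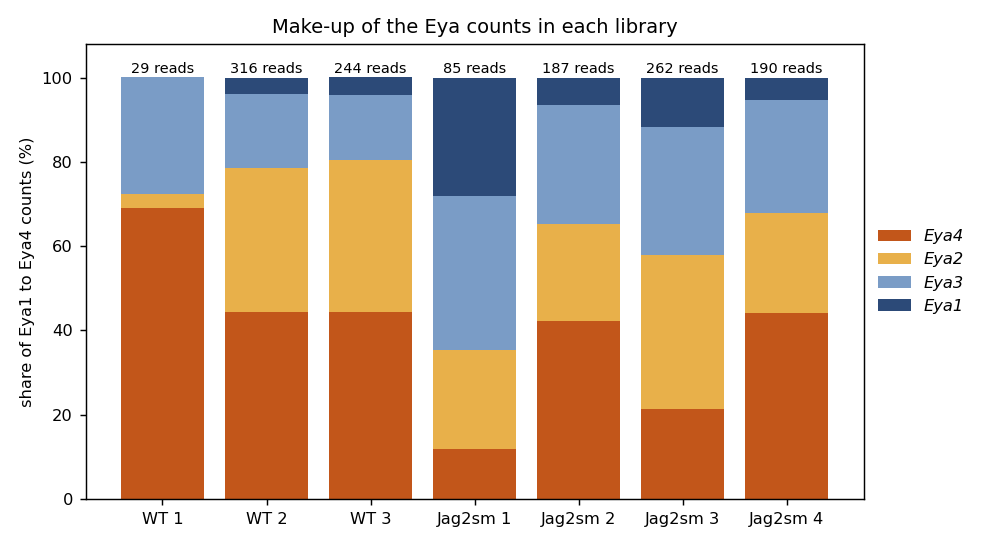
Share of each Eya gene in the Eya1 to Eya4 reads of each library (percent, stacked to 100), with the number of reads above each bar. Eya4 makes up 69.0% of only 29 reads in WT replicate 1, 44.3% in the other WT libraries, and 11.8% and 21.4% in Jag2sm replicates 1 and 3.

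*Pitx3* (ENSMUSG00000025229.16, chromosome 19, 46123719 to 46136916) had 0, 13.6 and 8.54 CPM in WT replicates 1 to 3 and 2.83, 11.1, 6.41 and 12.2 CPM in *Jag2sm* replicates 1 to 4. The genotypes overlapped throughout, and the log2 fold change of -0.25 had a 95% interval of -1.44 to 0.95 (adjusted p = 0.858 from edgeR), from 30 and 46 counts. Its exons overlap those of *Elovl3* on the opposite strand. *Pitx1* had no counts.

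*Lbx1* (ENSMUSG00000025216.10, chromosome 19, 45221109 to 45225311) had 40.4, 19.4 and 10.4 CPM in WT replicates 1 to 3 and 15.6, 20.7, 22.2 and 16.3 CPM in *Jag2sm* replicates 1 to 4. All *Jag2sm* values lay inside the WT range. The log2 fold change was 0.04 (SE 0.381, adjusted p = 0.979 from edgeR), and its 95% interval of -0.80 to 0.89 includes differences of either sign. The sign turned to -0.40 without WT replicate 3, and exons of *Lbx1* overlap those of *Gm59260* on the opposite strand.

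**Figure D3:**
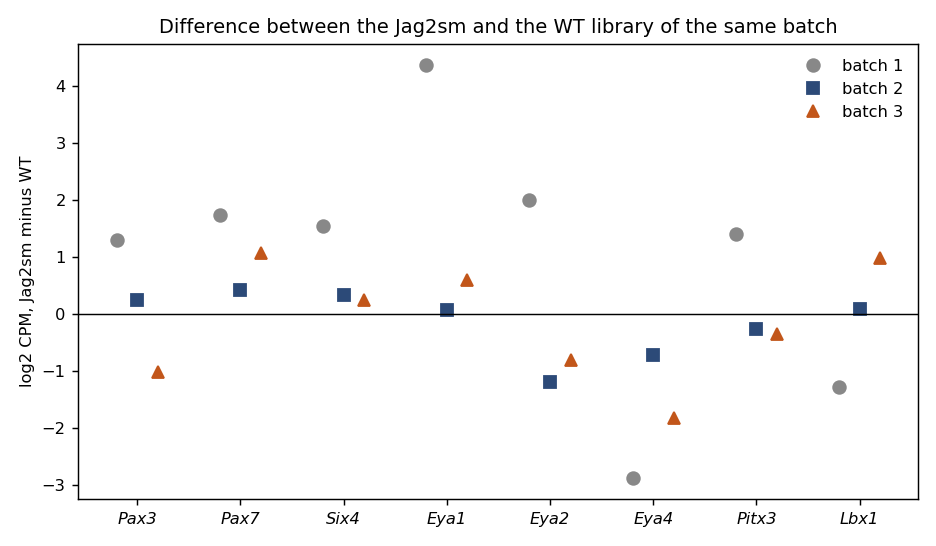
Difference in log2 CPM (prior count of 2) between the Jag2sm and the WT library of the same batch, for batches 1 to 3 of the labels; batch 4 holds a Jag2sm library only. Pax7, Six4 and Eya1 are above 0 and Eya4 is below 0 in all 3 batches, and batch 1, with the shallow WT replicate 1, lies farthest from 0 in Eya1 (4.38, against a WT count of 0), is well above the other batches in Six4 (1.54), and has the opposite sign to both others in Eya2, Pitx3 and Lbx1.

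Per kilobase of the longest annotated transcript, the mean level in WT was highest for *Eya2* (20.5 CPM per kb), followed by *Eya4* (18.1), *Pax7* (11.7), *Lbx1* (8.99), *Six4* (4.35), *Pitx3* (2.32), *Pax3* (2.27) and *Eya1* (1.28). In *Jag2sm* libraries the order was *Pax7* (22.5 CPM per kb), *Eya2* (13.7), *Eya4* (7.26), *Lbx1* (7.18), *Six4* (6.92), *Pax3* (3.91), *Eya1* (3.65) and *Pitx3* (2.56). Without WT replicate 1, which had 0 to 7 reads on each member but *Eya4*, the WT level was 5.73 CPM per kb for *Lbx1*, 3.48 for *Pitx3*, 1.92 for *Eya1* and 29.6 for *Eya2*, and *Eya1* and *Pax3* (1.91) changed places at the end of the order. A nanopore read can span a whole transcript, so division by length may understate long transcripts such as that of *Six4* (6817 bases). In WT, *Eya4* and *Pax7* were the only neighbours in this order whose means per kb differed by more than the larger of their SDs. In *Jag2sm* libraries *Pax7* and *Eya2*, and *Eya2* and *Eya4*, did so, and the other neighbours did not.

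By the root mean square difference of log2 CPM centred on each gene's mean over the 7 libraries, the genes most like *Pax7* were *Spag5* (0.0934), *Snai2* (0.115) and *Nop14* (0.121). Those most like *Six4* were *Med18* (0.0789), *Sfr1* (0.0804) and *Zfp945* (0.0820). Those most like *Eya4* were farther from it, *Fgf9* (0.264), *Ptges3l* (0.270) and *H19* (0.306). Of these 3, *Ptges3l* was called (log2 fold change -1.46, adjusted p = 0.0285 from edgeR). For the other members the nearest gene was at 0.0936 (*Lbx1*) to 0.342 (*Pax3*), and genes with a like profile share the same 7 libraries and their depth.

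Of 18 other genes of the PAX, SIX-homeobox, EYA, PITX, LBX and DACH families, 12 had counts, 4 were tested, *Six2* and *Eya3* among them, and none was called by edgeR, with none at an unadjusted p under 0.05. *Six2* had a log2 fold change of 1.32 (95% interval -0.06 to 2.70, adjusted p = 0.278), from 16 and 72 counts. Of 9 other factors and receptors of muscle progenitors, 2 were tested and neither was called, *Met* at a log2 fold change of 0.74 (adjusted p = 0.141) and *Cxcr4* at 0.62 (adjusted p = 0.413).

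Downstream of the members, 2 of the 4 bHLH genes were called, both lower in *Jag2sm* MuSCs. *Myog* had 2894, 2222 and 2851 CPM in WT replicates 1 to 3 and 711, 387, 110.4 and 906 CPM in *Jag2sm* replicates 1 to 4, and *Myf6* had 167, 39.4 and 32.2 CPM against 7.07, 2.07, 3.45 and 0.815 CPM. *Jag2sm* replicate 3 had the lowest *Myog* and the highest *Pax7* of all libraries. Both early factors had intervals that include no difference. *Myf5* had a log2 fold change of 0.60 (95% interval -0.57 to 1.76, adjusted p = 0.587 from edgeR) and *Myod1* one of -0.19 (-0.68 to 0.30, adjusted p = 0.696). *Pax7* minus *Myog*, in log2 CPM, was -6.57, -4.51 and -5.11 in WT libraries and -2.80, -1.57, 0.63 and -2.84 in *Jag2sm* libraries.

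**Figure D4:**
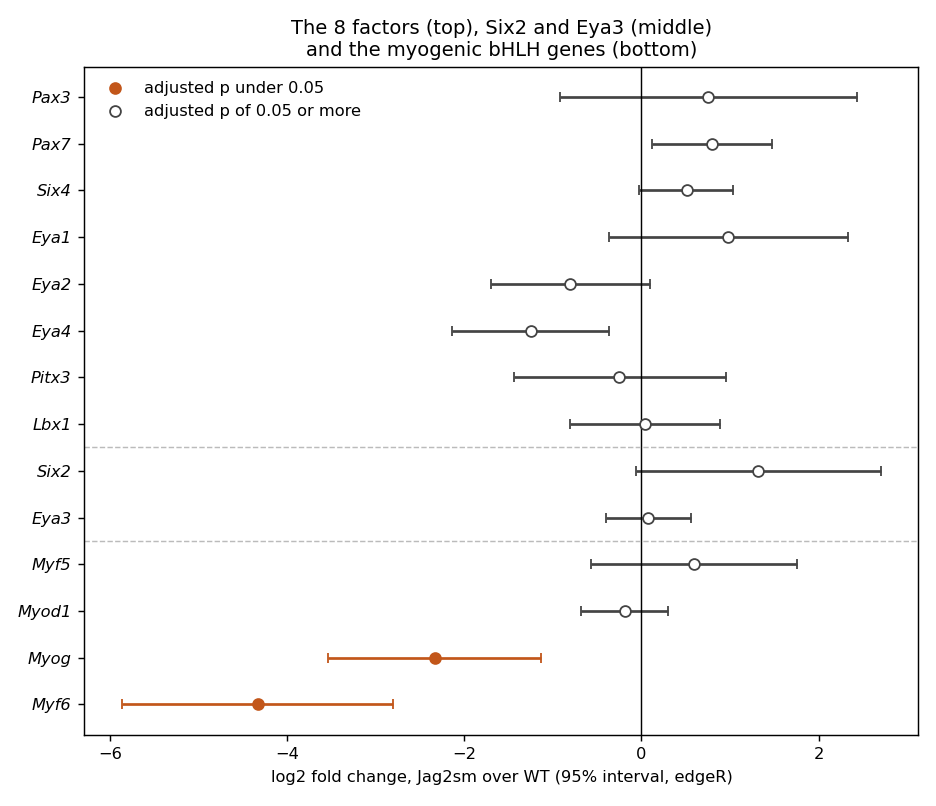
Log2 fold change of Jag2sm over WT with its 95% interval from edgeR for the 8 factors, the family genes Six2 and Eya3 and the 4 myogenic bHLH genes; filled points have an adjusted p under 0.05. The intervals of 6 of the 8 factors include 0, those of Pax7 (0.12 to 1.48) and Eya4 (-2.14 to -0.37) do not, and Myog and Myf6 lie far to the left.

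Genes known as targets of the members were read from the same fit. Of 6 PAX3 or PAX7 targets, 5 were tested and 1 fell, *Itm2a*, an early muscle membrane gene, from 282 ± 88.2 CPM (SD, n = 3) to 103 ± 39.6 CPM (SD, n = 4), at a log2 fold change of -1.47 (adjusted p = 0.0186 from edgeR). *Fgfr4* had -1.07 (adjusted p = 0.0681), *Met* 0.74 (0.141), *Id3* 0.55 (0.314) and *Myf5* 0.60 (0.587), so the tested targets had both signs. Of 10 SIX-family and EYA targets, 7 were tested, all 7 had a negative log2 fold change and 6 fell, *Myog*, *Myh4*, *Atp2a1*, *Tnnt3*, *Tnni2* and *Actn3*, where 4.84% of all genes tested were called lower. *Myh4*, the heavy chain of the fastest fibers, had 170 counts in WT and 8 in *Jag2sm* libraries (log2 fold change -5.55, adjusted p = 0.00152). *Aldoa*, the glycolytic aldolase of muscle, had a log2 fold change of -1.02 (adjusted p = 0.0580). The median over the 7 was -3.30, against 0.05 over all genes tested. Most of these targets are also genes of differentiated muscle, whose markers differed as given above, and the part of that difference was not tested.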

How the data were processed

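RNA of MuSCs was sequenced as barcoded cDNA on nanopore flow cells. Per the labels, the authors used minimap2 2.17 for alignment to the GRCm39 build and HTSeq for counting, and they deposited 1 file of whole-number counts per gene for each library. The annotation release and strand setting are not given in the sources used here. A deposited table of the authors' own comparison (fold changes and p-values) was not used.

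Counts of 56748 genes were analysed in R 4.3.3. Rows for unassigned reads stayed out of library sizes. Genes were filtered with filterByExpr of edgeR 4.0.16 (minimum count 10, minimum total 15), which left 9489, scaled with TMM and tested with edgeR's quasi-likelihood test, *Jag2sm* against WT, with Benjamini-Hochberg adjustment over all genes tested and a threshold of 0.05. CPM are per TMM-scaled library, and log2 CPM used a prior count of 2. The 8 members, all called genes of the lists and the bHLH genes are named, with the 3 genes most like a member. *Aldoa*, *Fgfr4*, *Id3*, *Met*, *Cxcr4*, *Six2* and *Eya3* were added after their values were seen. Members and lists were chosen with earlier results of these data known. DESeq2 1.42.0, limma 3.58.1 (voom), other scalings and filters, thinning, a replicate block and leaving out each library were alternatives. Gene positions are from GENCODE on GRCm39.

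The labels give each library a batch number equal to its replicate number, without saying what a batch is. This was taken as a pairing of replicates 1 to 3, although same-numbered libraries hardly deviated together (correlations 0.0740, 0.0144 and 0.0539 across 9489 genes). Libraries of a genotype differed by more than sampling noise, so none was counted as a duplicate. Chi-square per degree of freedom was 2.12 for WT replicates 2 and 3 and 2.71 for *Jag2sm* replicates 2 and 4. The other pairs were at 8.94 to 10.7. Whether the 2 closer pairs share a mouse or a cell isolation is not given, and the p-values treat their libraries as independent.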

Additional observations from a re-analysis of the deposited data

Results flagged for a closer look

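Reads that were not aligned are outside the comparisons above, and their highest share among the *Jag2sm* libraries was 50.8% (*Jag2sm* replicate 1), against at most 3.24% in the WT libraries. None of the 8 members had a *Jag2sm* library apart from the other 3 by Dixon's test (critical value 0.829 for 4 samples).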

How the results depend on the processing

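Over 23 alternatives, *Pax7*, *Six4* and *Eya1* kept a positive and *Eya2* and *Eya4* a negative log2 fold change wherever they were tested. The main fit called 594 of 9489 genes tested. With no filter on low counts 1248 of 25189 were called (1 member, *Eya4*, -1.22, adjusted p = 0.000396 from edgeR). With at least 10 counts in every library 274 of 2981 were called, and *Eya4* was the only member tested. With counts thinned to the smallest library 248 of 3512 were called, and only *Pax7* and *Eya4* were tested. Neither of these stricter fits called a member. Leaving out 1 library gave 251 (without *Jag2sm* replicate 2) to 616 genes, with 343 without WT replicate 2 and 341 without WT replicate 3, and 0 to 1 members called. The log2 fold change then ran from -1.58 to -1.01 for *Eya4*, -1.09 to -0.48 for *Eya2*, -0.46 to 0.33 for *Pitx3* (positive without WT replicate 2) and -0.40 to 0.30 for *Lbx1* (-0.02 without *Jag2sm* replicate 3). *Lbx1* was also at -0.01 with DESeq2, and *Pax3* at -0.04 with limma-voom. With the replicate block 565 genes and 1 member were called (*Eya4*, -1.66), and the block changed no other member's call. Leaving out 1 library with the block gave 393 (without *Jag2sm* replicate 2) to 666 genes and 0 to 2 members, and the log2 fold change ran from -2.31 to -1.28 for *Eya4* (-1.29, -2.30 and -1.60 without WT replicates 1, 2 and 3, -1.59 and -1.65 without *Jag2sm* replicates 3 and 4), -1.02 to -0.17 for *Eya2*, -0.30 to 0.66 for *Pax3* and -0.43 to 0.54 for *Lbx1*. *Pax3* was at -0.30, -0.02, -0.28 and -0.02 without WT replicates 1 and 2 and *Jag2sm* replicates 1 and 2, and *Lbx1* at -0.43 and -0.42 without WT replicate 3 and *Jag2sm* replicate 3. Scaling by library size alone moved the median of all genes from 0.05 to 0.21, and *Eya4* was then at -1.10. With the block, leaving out either library of a batch removes the same pair, and batch 4 (*Jag2sm* replicate 4 alone) adds nothing to the contrast, so these 7 fits are not separate checks. They, and the WT level without WT replicate 1, were chosen after seeing the data. Causes were not tested. Depth limits *Pax3*, *Eya1*, *Pitx3* and *Lbx1* most, with 22 to 48 counts in all WT libraries together.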
